A study of Dunaliella salina with 12 samples.

Results

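The comparison described here sets 3 libraries of Dunaliella salina exposed to added NaCl against 3 libraries of the same strain in control medium, 6 of the 12 libraries of the series, chosen by their titles. D. salina is a unicellular green alga without a rigid cell wall that lives in salt lakes. When the outside becomes saltier, water leaves the cell, the cell shrinks, and volume is regained as glycerol is made inside from starch and from newly fixed carbon. The same cells must also keep sodium out, and photosynthesis is known to be disturbed in the first hours after such a shift.

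Cells of strain 435, labelled as 5 days old, were grown at 25 °C with 16 h of light at 8000 lx and 8 h of dark. They were spun down and moved to fresh medium that held 1.5 M NaCl, which was the control treatment, or to this medium with a further 1.5 M NaCl. All were harvested after 2 h. All 6 libraries therefore come from cells that were spun, moved and kept in salt medium, and the comparison is between 2 salt levels. The other 6 libraries, 3 with 1.5 M sorbitol and 3 with 0.4 mM H2O2 added to the same medium, are used only for values set beside these. Whether replicates were separate cultures is not stated in the labels, and p-values then measure only how these libraries differ, which may be technical.

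Levels are FPKM, fragment numbers per length of transcript and relative to all mapped fragments of the library, of assembled genes. A gene ID holds the number of an assembly component and that of a gene within it. None of the 82333 IDs matched (0) an entry of the D. salina reference table of 16683 genes, and the files do not pair them with names. Functions are therefore not given, no marker of glycerol synthesis, photosynthesis or a second organism could be looked up, and most genes are referred to by rank. The control libraries held 41098, 41096 and 42673 genes above 0, and the NaCl libraries 41109, 42727 and 39367. Low values move in steps of 1 read, and from these steps the 6 libraries had 0.942 to 1.21 times the mean depth of all 12. The values hold no absolute depth.

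A large part of the expressed genes changed within 2 h of added NaCl. Of the 82333 genes, 22039 had at least 1 FPKM in at least 3 of the 6 libraries and were tested. These genes held 98.3% of the summed FPKM in control and 97.7% with NaCl. On the log2(FPKM + 1) scale 9825 of them changed (44.6% of those tested; limma with a mean-variance trend, Benjamini-Hochberg adjusted p below 0.05). Of these, 5257 rose (23.9%) and 4568 fell (20.7%). The share of calls that were higher was 53.5% as deposited, 49.3% under median-ratio scaling of the libraries and 58.0% with equal sums, so which direction held more genes turned with the scaling. The 3 libraries of one group all lay above the 3 of the other in 12066 tested genes (54.7%). NaCl was above control in 6483 of these (29.4%) and below it in 5583 (25.3%). Of the 9825 called genes, 9723 had groups that did not overlap.

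Most changes were small. The median absolute log2 fold change over all tested genes was 0.47, and 1 gene in 10 changed by more than 1.27. Called genes had a median of 0.81 and the others one of 0.24. A change below 1 log2, less than a doubling or halving, was found in 6375 called genes, 64.9% of the calls. Changes of at least 1 log2 were called in 3450 genes (15.7%), of which 1435 rose (6.51%) and 2015 fell (9.14%). The SD of the fold changes was 0.80 log2. Estimated from products of differences that share no library, which leaves out the noise of single libraries, it was 0.73. Within a group, the median SD of a gene over 3 libraries was 0.17 log2 in control and 0.20 with NaCl. As deposited, the NaCl libraries thus varied a little more than the control ones. Their median-ratio scaling factors also lay further apart, at 0.938, 1.08 and 1.04 with NaCl and 0.968, 0.993 and 0.986 in control. Whether the difference in SD remains after scaling was not tested.

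Falls outnumbered rises at 1 and at 2 log2 or more, and the order turned beyond that. At 2 log2 or more, a 4-fold change, 221 genes rose and 274 fell. The lead of falls depended on the scaling. Median-ratio scaling gave 1296 rises and 2179 falls at 1 log2 and 211 and 296 at 2 log2. With equal sums the counts were 1647 and 1823 at 1 log2 and nearly level, 247 and 251, at 2 log2. At 3 log2 or more, an 8-fold change, 59 rose and 20 fell, and at 4 log2 or more 19 rose and 4 fell. The order at 3 log2 held under median-ratio scaling (54 and 23) and equal sums (63 and 18). It reversed with a pseudocount of 0.1 in place of 1, where 194 genes rose and 289 fell by 3 log2 or more. With a pseudocount of 1, a level of 7 FPKM or more is needed at the higher end of a change of 3 log2. Of the tested genes, 12418 reached it in the control mean and 12356 in the NaCl mean.

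**Figure D1:**
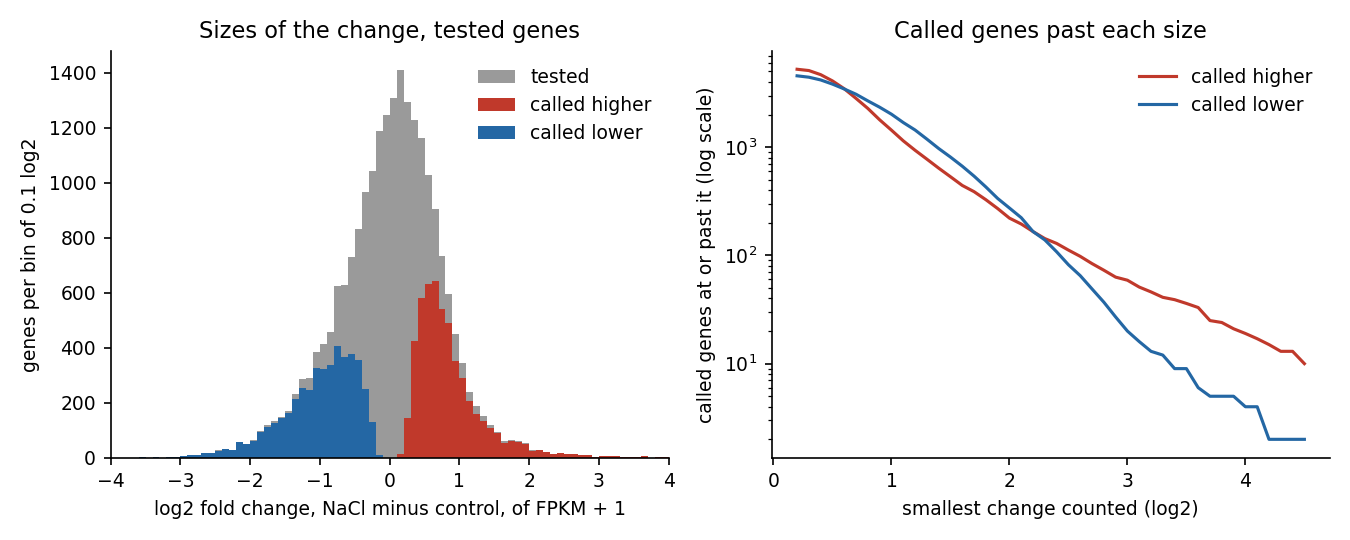
Left, number of tested genes (grey) and of called genes (red higher, blue lower) per bin of 0.1 log2 of the fold change, NaCl minus control, on log2(FPKM + 1); right, called genes at or past each size, on a log scale. Falls lead at 1 log2 (2015 against 1435) and rises at 3 log2 (59 against 20), an order that a pseudocount of 0.1 reverses.

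The 59 genes that rose by at least 3 log2 were mostly expressed at a low level in control medium. Their median mean level went from 5.04 FPKM in control to 113 FPKM with NaCl, and the highest reached 1929 FPKM. In control, 15 had a mean below 1 FPKM and 8 were listed at 0 in all 3 libraries. Together these 59 genes held 0.106%, 0.101% and 0.104% of the summed FPKM in the control libraries and 1.61%, 1.62% and 1.58% in the NaCl libraries. The genes were chosen by this difference, so it is a description. In libraries that had no part in the choice, they held 0.0922% to 0.125% with H2O2 and 0.566% to 0.687% with sorbitol, and those groups did not overlap. The size classes were chosen after the values were seen.

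Among genes at or above the median level of 9.14 FPKM with groups that did not overlap, the 5 largest rises were 5.64, 5.49, 5.39, 5.37 and 5.21 log2. The largest went from 33.4, 32.1 and 35.8 FPKM in control to 1641, 1767 and 1800 FPKM with NaCl. The next went from 4.48, 4.74 and 4.47 FPKM to 259, 249 and 239 FPKM. Both were close to even within each group. The gene that ranked 4 was uneven in control, at 7.65, 5.20 and 1.84 FPKM, and even with NaCl, at 231, 205 and 223 FPKM. The gene that ranked 5 rose from 33.5, 31.9 and 27.0 FPKM to 1212, 1098 and 1219 FPKM. The largest adjusted p of these 5 was 2.7e-05 in limma.

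The 20 genes that fell by at least 3 log2 went from a median mean level of 28.9 FPKM to 1.49 FPKM. With NaCl, 7 of them had a mean below 1 FPKM and none (0) was listed at 0 in all 3 libraries. They held 0.696%, 0.477% and 0.278% of the summed FPKM in the control libraries and 0.0397%, 0.0294% and 0.0391% with NaCl. The uneven control values came from 2 genes with 86.6% of that share, at 0.630%, 0.410% and 0.217% in control. The other 18 were even, at 0.0663%, 0.0674% and 0.0609%. By the same rule as for the rises, the 5 largest falls were -4.67, -4.59, -4.13, -4.12 and -3.90 log2. The largest went from 56.3, 49.1 and 49.2 FPKM to 2.52, 1.47 and 0 FPKM. The one that ranked 2 was the least even gene of the set, at 3559, 1665 and 555 FPKM in control and 55.1, 35.7 and 114 FPKM with NaCl. The gene that ranked 3 went from 50.9, 55.2 and 70.5 FPKM to 3.12, 2.04 and 2.10 FPKM. The largest adjusted p of these 5 was 0.0011 in limma.

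Each library in turn was compared with calls from a fit without it. With 5 libraries, 4306 to 5043 genes were called higher and 3674 to 4347 lower. Between 97.6% and 99.5% of the higher calls, and between 97.7% and 99.6% of the lower ones, had the same sign in the library left out, set against the mean of the other group. The left-out library lay beyond all 3 libraries of the other group in 94.6% to 97.9% of the higher calls and 94.8% to 98.7% of the lower ones. The median size was smaller in the left-out library in 9 of 12 cases. The median log2 fold change of the higher calls was 0.78 to 0.81 in the 5 libraries and 0.63 to 0.80 in the left-out one, and that of the lower calls -1.01 to -0.97 and -0.99 to -0.80. The other group was the same in both values, so its own deviations remain in them.

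Direction went with level of expression. The tested genes were divided into 10 level groups of 2203 to 2205 genes by their mean FPKM over the 6 libraries. In level group 3, between 2.38 and 4.07 FPKM, 243 genes rose and 455 fell. In level group 5, up to 9.14 FPKM, 474 rose and 474 fell. In level group 9, between 29.5 and 56.9 FPKM, 969 rose and 500 fell. In level group 10, above 56.9 FPKM, 864 rose and 778 fell. The median log2 fold change ran from -0.08 in level group 3 to 0.21 in level group 9 and was 0.04 in level group 10.

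The order of the directions in level groups 1 to 3 and 7 to 9 did not depend on the scaling. Under median-ratio scaling, level group 3 had 244 higher and 499 lower genes and level group 9 had 861 and 530. With equal sums they had 268 and 431, and 1047 and 448. In level group 10 the order turned under median-ratio scaling, to 755 rises and 775 falls, and was kept with equal sums, at 923 and 699. The share of genes called rose from 12.7% in level group 1 to 74.5% in level group 10, while the median standard error fell from 0.37 to 0.08 log2. The median absolute fold change moved little, between 0.42 and 0.54. The rise in calls with level thus went with smaller errors, and the sizes of the changes did not grow in step.

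**Figure D2:**
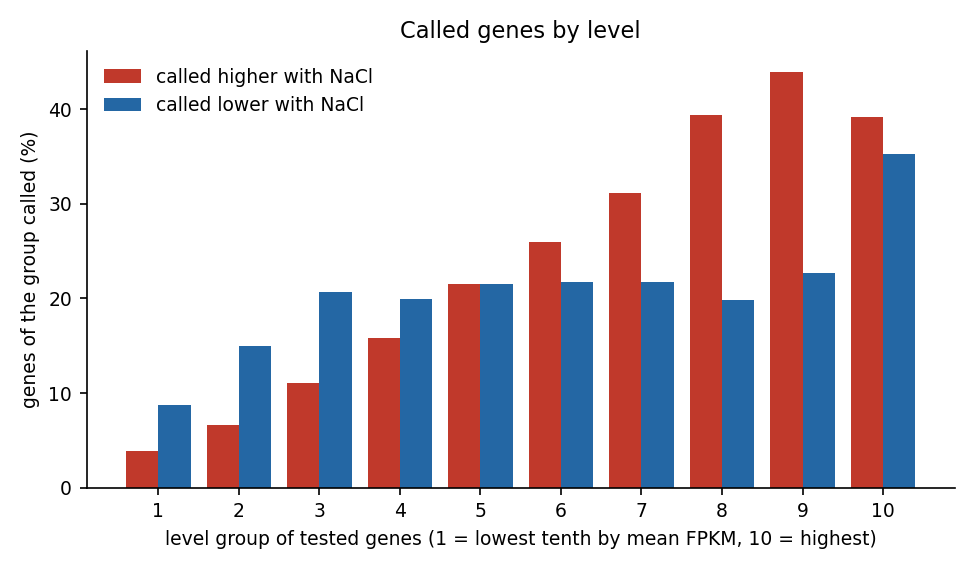
Share of genes called higher (red) and lower (blue) with NaCl in 10 equal groups of tested genes ordered by mean FPKM over the 6 libraries. Falls lead in the low groups (20.6% against 11.0% in group 3), rises in groups 7 to 9 (44.0% against 22.7% in group 9).

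The very highest genes were an exception to the high share of calls. Of the 100 genes with the highest mean over the 6 libraries, all above 1813 FPKM, 68 did not pass the test, 15 rose and 17 fell, so 32.0% were called against 44.6% of all tested genes. Their median absolute fold change was 0.11 log2. In the next 400 genes, between 232 and 1811 FPKM, 80.0% were called, 116 higher and 204 lower, and the median absolute fold change was 0.54. Precision was similar, with a median standard error of 0.07 log2 in both. Under median-ratio scaling the counts were 5 higher and 16 lower in the first band and 98 and 195 in the next. With equal sums they were 24 and 16, and 121 and 184. The bands were chosen after the values were seen.

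The 68 high genes that did not pass had fold changes between -0.13 and 0.18 log2 and held a large part of all transcripts. Their summed share was 25.3%, 25.1% and 26.4% in the control libraries and 28.6%, 26.5% and 27.9% in the NaCl libraries, so the lowest NaCl library lay just above the highest control library. A share is taken of the summed FPKM, whose mean was 1123814 in control and 1078312 with NaCl. An unchanged level therefore gives a larger share with NaCl. Among the 10 highest genes, 3 fell, 1 rose and 6 did not pass. The gene of rank 2 was at 18573, 18406 and 19773 FPKM in control and 20504, 18586 and 20956 FPKM with NaCl (adjusted p = 0.44 in limma). That of rank 4 was at 12219, 12087 and 13003 FPKM and 13395, 11499 and 12824 FPKM (adjusted p = 0.91 in limma). The genes of ranks 1 and 3 fell, and the gene of rank 2 was at place 3 in control and at place 1 with NaCl.

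How much of the transcript pool moved was measured on each gene's share of the summed FPKM, which counts transcripts and not bases. The share that differs between a pair of libraries is the sum of the absolute differences in share, divided by 2. It was 5.04%, 7.02% and 7.20% between pairs of control libraries and 7.28%, 7.42% and 7.52% between pairs of NaCl libraries. Between a control and an NaCl library it was 18.9% to 22.5% over the 9 pairs, with a median of 21.3%. All 9 lay above all pairs within a group. Between the means of the groups it was 20.2%. For comparison, sorbitol libraries differed from the same control libraries by 12.3% to 15.2% and H2O2 libraries by 7.78% to 10.5%, while pairs within H2O2 differed by 8.00% to 9.17%. These values share the control libraries and were not tested against each other.

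**Figure D3:**
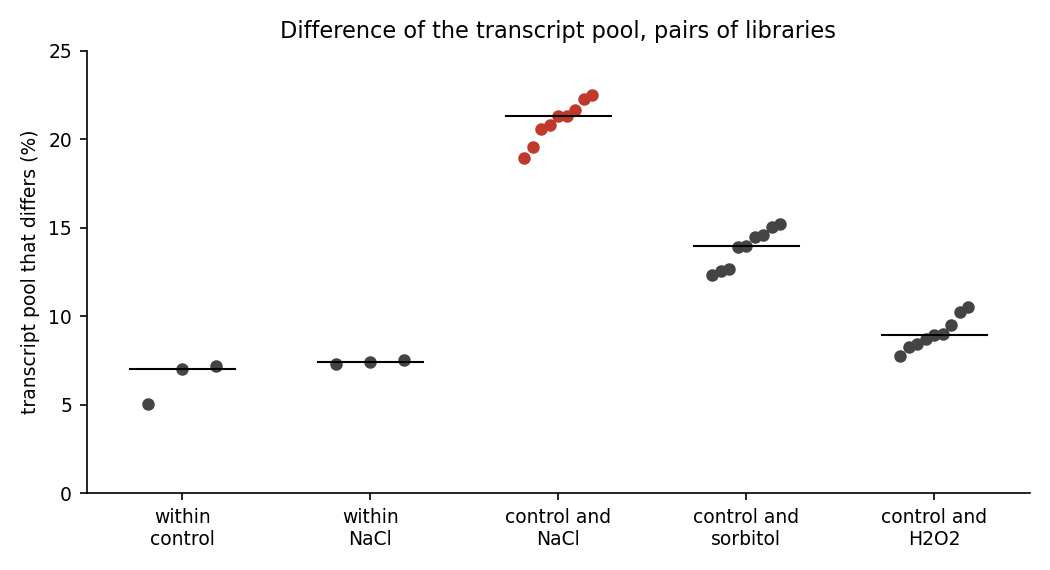
Share of the transcript pool that differs between pairs of libraries, in percent of the summed FPKM; each point is a pair and each line the median. Pairs of control and NaCl libraries lie between 18.9% and 22.5%, above the pairs within either group (5.04% to 7.52%).

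Genes called higher held 17.1% ± 0.33 (SD, n = 3) of the pool in control and 31.6% ± 0.60 with NaCl. Genes called lower held 38.4% ± 1.19 in control and 20.2% ± 0.81 with NaCl. The calls chose these genes, so both pairs are descriptions. In libraries outside the choice, the higher genes held 23.6% ± 0.52 with sorbitol and 19.0% ± 0.25 with H2O2, and the lower genes 28.2% ± 0.53 and 36.2% ± 0.81. The sorbitol and H2O2 libraries did not overlap on either measure. Tested genes without a call went from 42.8% ± 0.98 to 45.9% ± 0.50. The lower summed FPKM with NaCl raises the share of genes whose level is unchanged.

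Losses of share came from few genes and gains from many. Shares of a library sum to a fixed total, so a loss in some genes raises the share of others whose level is unchanged. Of the gain, 14.6 points lay in genes called higher, 3.89 in tested genes without a call and 1.73 in genes not tested. How much of the contrast comes from the fixed total was not tested. The 3 largest losses took 5.12 percentage points, 25.3% of all that was lost, and the 3 largest gains brought 1.15 points, 5.69% of all that was gained. It took 52 genes to reach 50% of the loss and 356 to reach 50% of the gain. The 100 largest losses made up 57.0% of the loss and the 100 largest gains 33.3% of the gain. Together the 3 genes with the largest losses held 7.59%, 7.74% and 5.77% of the pool in the control libraries and 2.32%, 1.82% and 1.61% in the NaCl libraries.

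**Figure D4:**
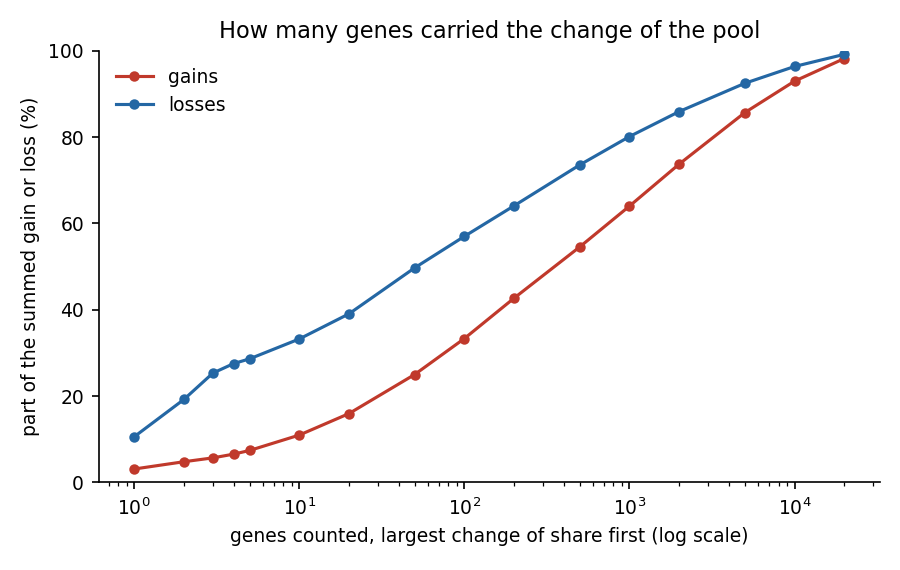
Part of the summed gain (red) and loss (blue) of pool share, in percent, carried by the genes with the largest changes of share, against the number of genes on a log scale. The first 10 genes carry 33.2% of the loss and 11.0% of the gain.

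The largest loss of share was that of c30888_g1. It was at 34280, 34833 and 24761 FPKM in the control libraries and 8447, 6573 and 5886 FPKM in the NaCl libraries. The groups were far apart, with control replicate 3 lowest in its group and NaCl replicate 1 highest. It fell by 2.17 ± 0.17 (SE) on the log2 scale (adjusted p = 6e-05 in limma) and went from 2.78% to 0.646% of the pool. The gene that ranked 6 by loss belongs to the same component, which has 4 genes in the table. It fell from 3700, 3808 and 3535 FPKM to 1518, 1142 and 1102 FPKM. Reads of a component may be divided between its genes, so these 2 may not be independent.

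The next largest loss was that of c19532_g1, which went from 33483, 34365 and 26627 FPKM to 13342, 10804 and 9958 FPKM. It fell by 1.47 ± 0.14 (SE) on the log2 scale (adjusted p = 0.00014 in limma), from 2.80% to 1.05% of the pool. Control replicate 3 and NaCl replicate 1 again lay nearest to the other group. The gene that ranked 3 by loss had the same order of libraries, at 17649, 18568 and 12799 FPKM in control and 3345, 2091 and 1576 FPKM with NaCl. It was at place 4 of all genes in control and at place 82 with NaCl. The 10 largest losses ranged from 0.165 to 2.14 points, with log2 fold changes of -4.59 to -1.21.

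The largest gain of share was that of c31377_g2. It was at 2848, 3080 and 2800 FPKM in control and 10086, 9168 and 9429 FPKM with NaCl, even within both groups. It rose by 1.72 ± 0.07 log2 (SE, adjusted p = 3.9e-06 in limma) and went from 0.259% to 0.887% of the pool. The next was c31543_g2, at 6685, 6277 and 6018 FPKM in control and 9161, 9634 and 10435 FPKM with NaCl. It was already abundant in control, so a rise of 0.62 ± 0.08 log2 (SE, adjusted p = 0.00046 in limma) added 0.341 points. The gene that ranked 5 by gain was of another kind. It went from 186, 167 and 164 FPKM to 1890, 1969 and 1926 FPKM, a log2 fold change of 3.48. The 10 largest gains ranged from 0.117 to 0.628 points, with log2 fold changes of 0.55 to 5.64.

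The genes with the largest losses and gains were also read in the other media. They were chosen as the extremes of control against NaCl, so these groups are end points by choice, and nothing is read from another medium lying between them. The 10 genes with the largest losses held 9.25% ± 1.34 (SD, n = 3) of the pool in control, 7.39% ± 1.10 with H2O2, 3.99% ± 0.51 with sorbitol and 2.54% ± 0.48 with NaCl. The 10 genes with the largest gains held 1.45% ± 0.03, 1.46% ± 0.07, 2.39% ± 0.07 and 3.62% ± 0.03 in the same order of media. The sorbitol and H2O2 libraries did not overlap in either sum. Single genes did not all follow the sums. The sorbitol libraries overlapped the NaCl ones in 3 of the 10 losses and in 1 of the 10 gains. For the gain ranked 4, values were 1300, 1216 and 1175 FPKM with sorbitol and 1199, 1185 and 1308 FPKM in control, so those groups overlapped.

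**Figure D5:**
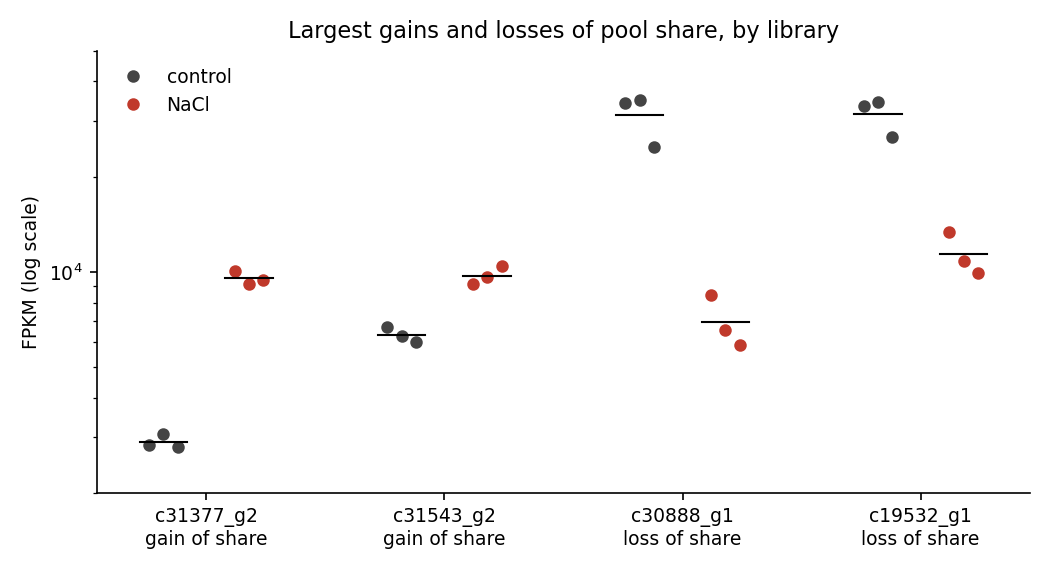
FPKM of the 2 genes with the largest gain and the 2 with the largest loss of pool share in the 3 control (grey) and 3 NaCl (red) libraries, on a log scale; lines are means. The groups do not overlap for any of the 4 genes.

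With the losses at the top, the highest genes held a smaller share of the pool. The 10 highest genes of each library held 13.6%, 13.7% and 12.1% of the pool in control and 9.76%, 8.89% and 9.26% with NaCl. It took 154, 156 and 169 genes to hold 50% of the pool in control and 195, 277 and 241 with NaCl. The summed FPKM was 1123814 ± 10700.0 (SD, n = 3) in control and 1078312 ± 10050.0 with NaCl. Groups did not overlap in these 3 measures, and each gave an exact two-sided permutation p of 0.1, the smallest that 3 against 3 libraries allow (0.15 adjusted over 6 measures). The number of genes above 0 and at 1 FPKM or more overlapped between the groups (exact permutation p = 0.9 each). If all mapped fragments belong to listed genes, the summed FPKM gives the mean effective length of the transcripts in the pool, 890 ± 8.50 bases in control and 927 ± 8.69 with NaCl. This measure was added after the values were seen.

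The list of highest genes turned over only in part. Pairs of control libraries shared 93 to 96 of their 100 highest genes and pairs of NaCl libraries 94 to 97. A control and an NaCl library shared 82 to 89.

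Few genes were listed at 0 in one group only. With NaCl alone, 51 genes were at 1 FPKM or more in all 3 libraries and listed at 0 in all control libraries. In control alone there were 88. A listed 0 was not tested as absence. Single libraries were also at 0 for some genes that both others of their group had at 1 FPKM or more. For a control library this held in 484 to 514 of the 19927 to 20043 genes at that level in both others. For an NaCl library it held in 333 to 513 of 18957 to 19643. The same rule applied to H2O2 against control gave 22 and 70 genes, and to sorbitol against control 47 and 124. Asking for 5 FPKM or more left 5 genes in NaCl alone and 1 in control alone, and at 10 FPKM or more there were none (0 and 0).

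These genes held little of the pool. The 51 held between 0.0183% and 0.0237% of the pool in the NaCl libraries and the 88 between 0.0218% and 0.0294% in the control libraries. The first of the 51, ranked by their lowest NaCl value, was at 8.38, 9.81 and 30.4 FPKM with NaCl. The next was at 15.1, 8.88 and 7.83 FPKM. It was also present at 14.5, 5.89 and 7.29 FPKM with sorbitol and at 6.56, 17.5 and 30.0 FPKM with H2O2. The one that ranked 3 was at 11.5, 9.07 and 6.27 FPKM, was at 4.30, 0 and 0 FPKM with sorbitol and was listed at 0 in all H2O2 libraries. Of the 88, the first was at 6.89, 7.72 and 6.0 FPKM in control, and the one that ranked 3, at 8.71, 9.87 and 3.83 FPKM, was listed at 0 in all sorbitol and H2O2 libraries too. Sorbitol and H2O2 libraries listed 13 of the 51 and 19 of the 88 at 0 throughout. All sorbitol libraries had 8 of the 51 and 15 of the 88 above 0, and all H2O2 libraries 1 of the 51 and 24 of the 88. A looser rule, below 1 FPKM in all libraries of one group and at 1 or more in all of the other, gave 270 genes for NaCl and 540 for control.

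Genes of 1 assembly component did not always move together. There were 2031 components with at least 2 tested genes, which held 5709 tested genes. Among their 8197 pairs, both genes were called in 1738. In 1039 of these (59.8%) both moved the same way and in 699 (40.2%) they moved in opposite ways, and 60 opposite pairs had changes of at least 1 log2 in both genes. The opposite pairs lay in 313 components. Large components give many pairs, with up to 18 tested genes in 1 component, so pairs are not independent. Over all tested genes 44.6% were called, and 53.5% of the calls were higher. Pairs of genes from different components were not counted, so whether these shares are particular to components was not tested. How the estimation divides reads among similar genes was not tested here.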

How the data were processed

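RNA-seq libraries of D. salina were compared after 2 h, 3 with added NaCl and 3 controls, grouped by title. Per the submitters' processing notes, adapters were trimmed with cutadapt and abundances estimated with RSEM, with tool versions and genome build not given in the sources used here. FPKM is taken as the unit in which the authors deposited the values. No source states this unit, which is inferred: sums differ between libraries, unlike TPM, and only 0.638% to 0.970% of values above 0 are whole, where read counts or RSEM's expected counts would be whole for most genes with few reads.

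From the files, log2(FPKM + 1) was fitted with limma 3.58.1 (R 4.3.3, mean-variance trend) on the 6 libraries, for genes that reached 1 FPKM in 3 or more of them. P-values were adjusted over all 22039 tested genes by Benjamini-Hochberg, with a threshold of 0.05. Errors come from 3 libraries a group; the values hold no absolute depth, so no counting intervals are given. The fit was checked on simulated data. Relative depth was the most frequent ratio to a control library among genes between 0.2 and 1.2 FPKM, within 0.05 log2 on either side. Tables were handled with Python 3.11.15, pandas 2.3.3, numpy 2.4.6 and matplotlib 3.10.9.

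Since IDs have no names, 2 higher and 2 lower IDs are printed: called genes with groups that do not overlap and the largest gain or loss of mean share of the summed FPKM. Others, by rank, are the next 8 of each, the 5 largest fold changes in each direction at or above the median level, and the 3 genes listed at 0 in one group with the highest lowest value in the other. Comparison, lists and rules were chosen with earlier results of these data known. Alternatives were scaling, pseudocount, filter, threshold, trend, all 12 libraries, replicate block, components and each library left out. Gene lists by function could not be run, and no sequence is shown for lack of a match.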

Additional observations from a re-analysis of the deposited data

How the results depend on the processing

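The values limit low genes most: with no absolute depth, a listed 0 and a level near 1 FPKM cannot be given a counting error, and the log2(FPKM + 1) scale shrinks their changes. Of 145 values recomputed under alternatives, 123 stayed within 1.5 times the reported count or within the spread between libraries. Some of these could not move. The SD of fold changes stays at 0.80 with all 12 libraries, without the trend and with the replicate block, which alter only the errors. Counts of all, higher and lower calls overlap, and each was counted as a separate value. The 28 called genes named or given by rank, those listed at 0 in one group aside, kept call and direction in all 420 values of 15 alternatives, which leave out the sums over components. These genes were chosen as called extremes with groups apart in the same libraries, so this outcome was largely set by the choice. The count of called genes was 6406 (29.1% of those tested, 3356 higher) at an adjusted p of 0.01 in limma. It was 9930 (45.1%) with all 12 libraries in one fit, 7211 of 69304 genes (10.4%) with no filter and 8311 of 18445 components (45.1%). Falls of at least 1 log2 numbered 1335 of the 14815 genes tested at 5 FPKM, against 2015 of 22039 as reported. The SD of fold changes was 1.14 with a pseudocount of 0.1 and 0.64 with no filter.

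Genes listed at 0 in control only numbered 163 with NaCl at 0.5 FPKM or more and 5 at 5 FPKM or more; those listed at 0 with NaCl only numbered 230 and 1. The pool that moved was 19.2% over tested genes and 18.9% without the 10 highest genes, and the share held by the 100 highest genes of each library changed by -2.92 points, against -3.82 for the 10 highest. Leaving out 1 library gave 8011 to 8887 called genes (4306 to 5043 higher, 3674 to 4347 lower), 3242 to 3457 with at least 1 log2 (1315 to 1614 higher, 1833 to 2098 lower), an SD of 0.81 to 0.82, and a pool that moved of 19.9% to 21.0%. The change for the 10 highest genes was then -4.33 to -3.53 points, and the genes listed at 0 numbered 71 to 289 in control only and 120 to 374 with NaCl only. A group of 2 libraries meets that rule more easily, and every left-out control moved the second count past 1.5 times, as every left-out NaCl library did the first: 289, 193 and 273 without NaCl replicates 1, 2 and 3, and 340, 330 and 374 without control replicates 1, 2 and 3. Without control replicates 1 and 3 the first count was 78 and 88.

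The replicate number as a block gave 8993 called genes, 8700 of them shared with the reported ones. Deviations of same-numbered libraries correlated across genes at 0.02, -0.03 and -0.13, and those of differently numbered ones at -0.08 to 0.12. No link by number was seen in these values, which cannot show whether numbers marked shared cultures or batches. The labels do not say.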

Other observations

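The libraries of the NaCl group differed in their offset from control. Against the control mean, the median log2 difference over tested genes was -0.04 in NaCl replicate 1, 0.14 in replicate 2 and 0.09 in replicate 3, and the higher share of calls was 56.7% without NaCl replicate 1, 49.8% without replicate 2 and 50.6% without replicate 3. The SD of the differences from the control mean was close in the 3 libraries, at 0.84, 0.86 and 0.88 log2.

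The genes with rises of at least 3 log2 were even over NaCl libraries as a group, at 1.60% ± 0.02 (SD, n = 3) of the pool, and in control at 0.104% ± 0.003. The genes were chosen by this difference, and the spread is given as a value only.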
